A study of Mus musculus with 21 samples.

Results

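The genes described here are 10 members of the BCL2 family that are not the family's classic p53 targets: Bcl2, Bcl2l1, Bcl2l2, Mcl1, Bak1, Bok, Bid, Bad, Bcl2l11 and Bmf. They were chosen by symbol, and all 10 had a row among the 20900 genes of the deposited table. The cells were E14, a mouse embryonic stem cell line of the 129 strain, grown with serum and leukaemia inhibitory factor, which keeps such cells undifferentiated. All libraries were poly(A) RNA from this single line. The control group was taken at 0 h without inhibitor, and the medium of the other 6 groups held BMH-21 or CX-5461 at 1 µM for 2, 4 or 8 h. Both compounds block RNA polymerase I, the enzyme that copies ribosomal DNA, and each of the 7 groups had 3 replicates. The 0 h group served both inhibitors, so the hours spent in fresh medium without a compound were not controlled for.

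BCL2 family proteins decide whether the outer membrane of mitochondria stays closed. Anti-apoptotic members (BCL2, BCL-XL from Bcl2l1, BCL-W from Bcl2l2, and MCL1) bind and restrain the effectors, which otherwise form pores that release cytochrome c. BAK from Bak1 is such an effector, and BOK is a related protein that can act without the usual activators. BH3-only members (BID, BAD, BIM from Bcl2l11, and BMF) sense stress and either activate effectors or occupy the anti-apoptotic proteins. MCL1 is known for its short half-life, and mouse embryos need it early in development.

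Read depth was 46604397 to 62812641 reads per library, recovered from the deposited log2 values. Those values carry a scaling factor per library that was 1.209 to 1.375 with BMH-21 at 8 h and 0.888 to 0.943 with CX-5461 at 8 h. On the deposited scale the median difference from control over the 14666 tested genes was therefore -0.40 with BMH-21 and 0.11 with CX-5461 at 8 h, on the log2 scale. After each library was centred on its own median these medians were -0.19 and -0.11. Each change below is thus given as deposited and as centred, and a member is said to hold under 3 scalings when median-ratio factors gave the same call. The 8 stem cell markers were at a mean log2 above 6 in every group. Their summed level was 4996 to 5081 reads per 1000000 in control, 2927 to 3120 with BMH-21 at 8 h and 4425 to 4524 with CX-5461 at 8 h. As deposited, Tdgf1 lay above its control mean at 8 h of CX-5461 (10.25 against 9.88), and the other stem cell markers lay below theirs. The summed level of 6 fibroblast markers was 28.0 to 29.15 in control, 50.14 to 56.22 with BMH-21 at 8 h and 39.24 to 40.92 with CX-5461 at 8 h. Of these Col3a1, Postn and Dcn had group means below a log2 of 0 throughout, while with BMH-21 at 8 h Col1a1 went from 3.15 to 5.01 and Thy1 from 4.48 to 3.07. For 4 trophoblast markers the sums were 16.11 to 17.19, 75.47 to 92.8 and 45.25 to 47.24 in the same order, with Krt7 going from 0.99 to 5.66 and 4.49 on the log2 scale. Of the other trophoblast markers Krt8 went from 4.00 to 3.71 and 4.68, Cdx2 from -0.34 to 1.02 and 0.92, while Elf5 had group means below 0 throughout. In the same order the sums of 2 neural markers were 9.62 to 11.49, 4.37 to 5.57 and 8.52 to 9.74. Pax6 went from 3.26 to 0.22 and 2.8, and Sox1 from 1.38 to 1.44 and 1.58. The sums of 4 primitive endoderm markers were 11.51 to 12.8, 12.42 to 12.97 and 12.0 to 13.36. These hid opposite courses: Gata6 went from 1.12 to 1.77 and 1.84, and Sox17 from -0.01 to 0.26 and 0.35. Dab2 went from 2.86 to 1.8 and 2.64, and Gata4 from 1.72 to 1.02 and 1.48. For 2 mesoderm markers the sums were 1.58 to 2.12, 1.96 to 2.2 and 2.63 to 3.03. What part these marker changes have in the results was not tested, and in bulk RNA fewer cells of a type and less RNA per cell cannot be told apart. Nothing in the labels says that replicates were separate cultures, so p-values measure the spread between these samples, which may be technical.

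Expression of the family in untreated cells was dominated by Mcl1. In reads per kilobase of exon, as a share of the library's reads scaled to 1000000, Mcl1 stood at 140 ± 3.59 (SD, n = 3), followed by Bak1 at 30.1 ± 1.33 and Bid at 12.0 ± 0.203. Bcl2l1 was at 9.97 ± 0.188, Bok at 8.45 ± 0.295, Bcl2l11 at 5.15 ± 0.289, Bad at 4.66 ± 0.525 and Bmf at 4.41 ± 0.435. From Bcl2l11 through Bad to Bmf, neighbours in this order did not differ beyond their spread. Bcl2l2 was at 2.13 ± 0.297 and Bcl2, the founding member, at 0.0618 ± 0.0191. Of the per-length reads of the 4 anti-apoptotic genes in control libraries, Mcl1 held 92.0% ± 0.068, Bcl2l1 6.53% ± 0.12, Bcl2l2 1.40% ± 0.18 and Bcl2 0.0403% ± 0.012. Mcl1 ranked first, Bak1 second and Bcl2 last in each of the 7 groups. Exon lengths came from GENCODE M21 (GRCm38), which joins all isoforms of a gene, so these levels rank genes only approximately. Parts of the exons of Bak1 (25.5%), Bad (20.5%), Bid (17.7%), Bcl2l2 (13.3%) and Bcl2 (6.10%) overlap another gene. The partners are Ggnbp1, Gpr137, Bcl2l13 and D630008O14Rik on the opposite strand and Gm20521 on the same strand, and the strand setting of the counting is not given in the sources used here. Ggnbp1 had 302 to 569 reads per library against 2558 to 4559 for Bak1, whereas Gpr137 with 444 to 862 reads lay close to Bad with 567 to 1283. Bcl2l13 with 2694 to 4028 reads had a higher range than Bid with 1754 to 2837.

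**Figure D1:**
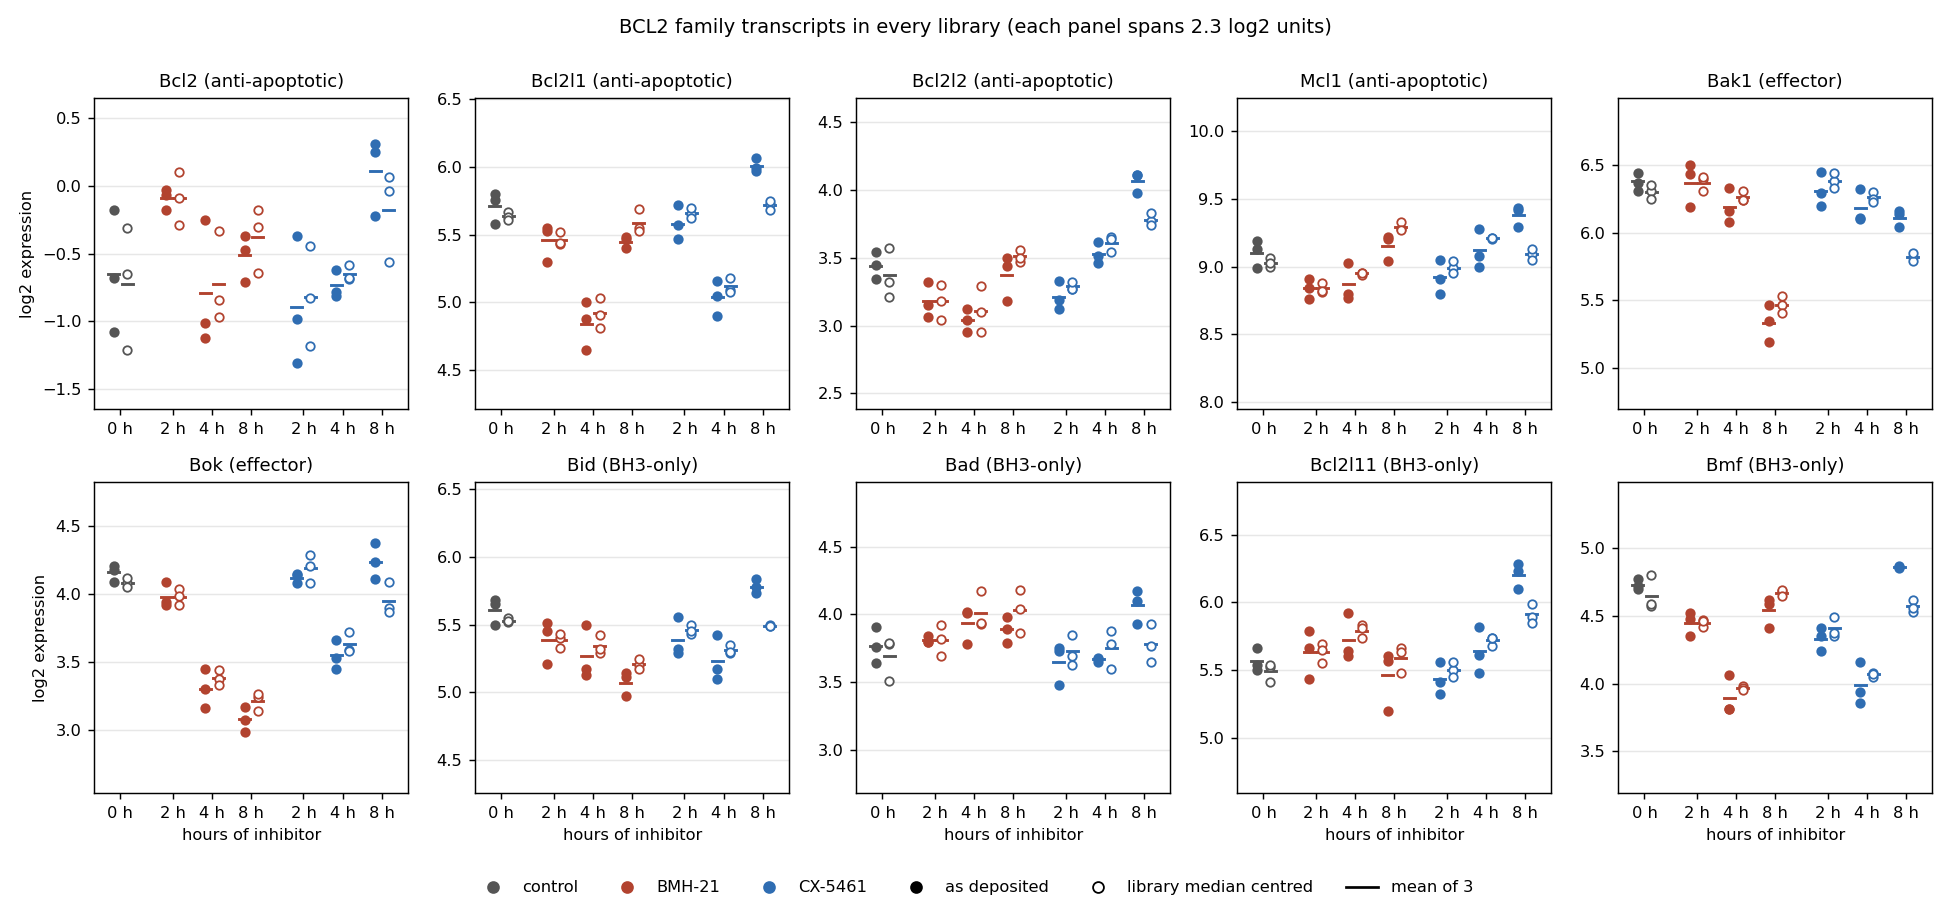
Log2 expression of the 10 genes (vertical axis) in each of the 21 libraries by group (horizontal axis, hours of inhibitor). Filled points are values as deposited, open points are centred on the library median, and bars are means of 3. Bak1 drops at 8 h of BMH-21, Bok drops at 4 h of both inhibitors and stays low with BMH-21, and Bcl2l1 and Bmf dip at 4 h.

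Of the 10 genes, 9 passed the filter on low values (log2 above 0 in at least 3 libraries), and Bcl2 did not. Counts below are of those 9, from limma with Benjamini-Hochberg adjustment over all tested genes. With BMH-21, 1 of 9 was lower at 2 h, where 11.2% of all tested genes were lower. At 4 h 6 were lower (background 44.9%) and at 8 h 4 were lower (background 56.9%). With CX-5461, 1 was lower at 2 h (background 20.5%) and 4 at 4 h (background 51.2%). At 8 h of CX-5461 5 were higher (background 35.1%) and 1 was lower (background 14.3%). Calls that held under 3 scalings were Mcl1 at 2 h, Bcl2l1, Bcl2l2, Bid, Bmf and Bok at 4 h and Bak1, Bid and Bok at 8 h of BMH-21, all lower. For CX-5461 they were Bmf at 2 h and Bcl2l1, Bid, Bmf and Bok at 4 h, all lower, and at 8 h Bcl2l11 and Bcl2l2 higher and Bak1 lower. The shares of all genes called in the same direction under 3 scalings were 11.0%, 38.8% and 43.3% lower for BMH-21 at 2, 4 and 8 h. For CX-5461 they were 12.8% and 36.5% lower at 2 and 4 h, and 29.3% higher and 14.2% lower at 8 h. With backgrounds of this size the number of members called says little about the family, and the results lie in which members moved, when and how far. As deposited, the median change of the 9 genes at 8 h was -0.19 with BMH-21 against -0.40 over all tested genes, and 0.28 with CX-5461 against 0.11.

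**Figure D2:**
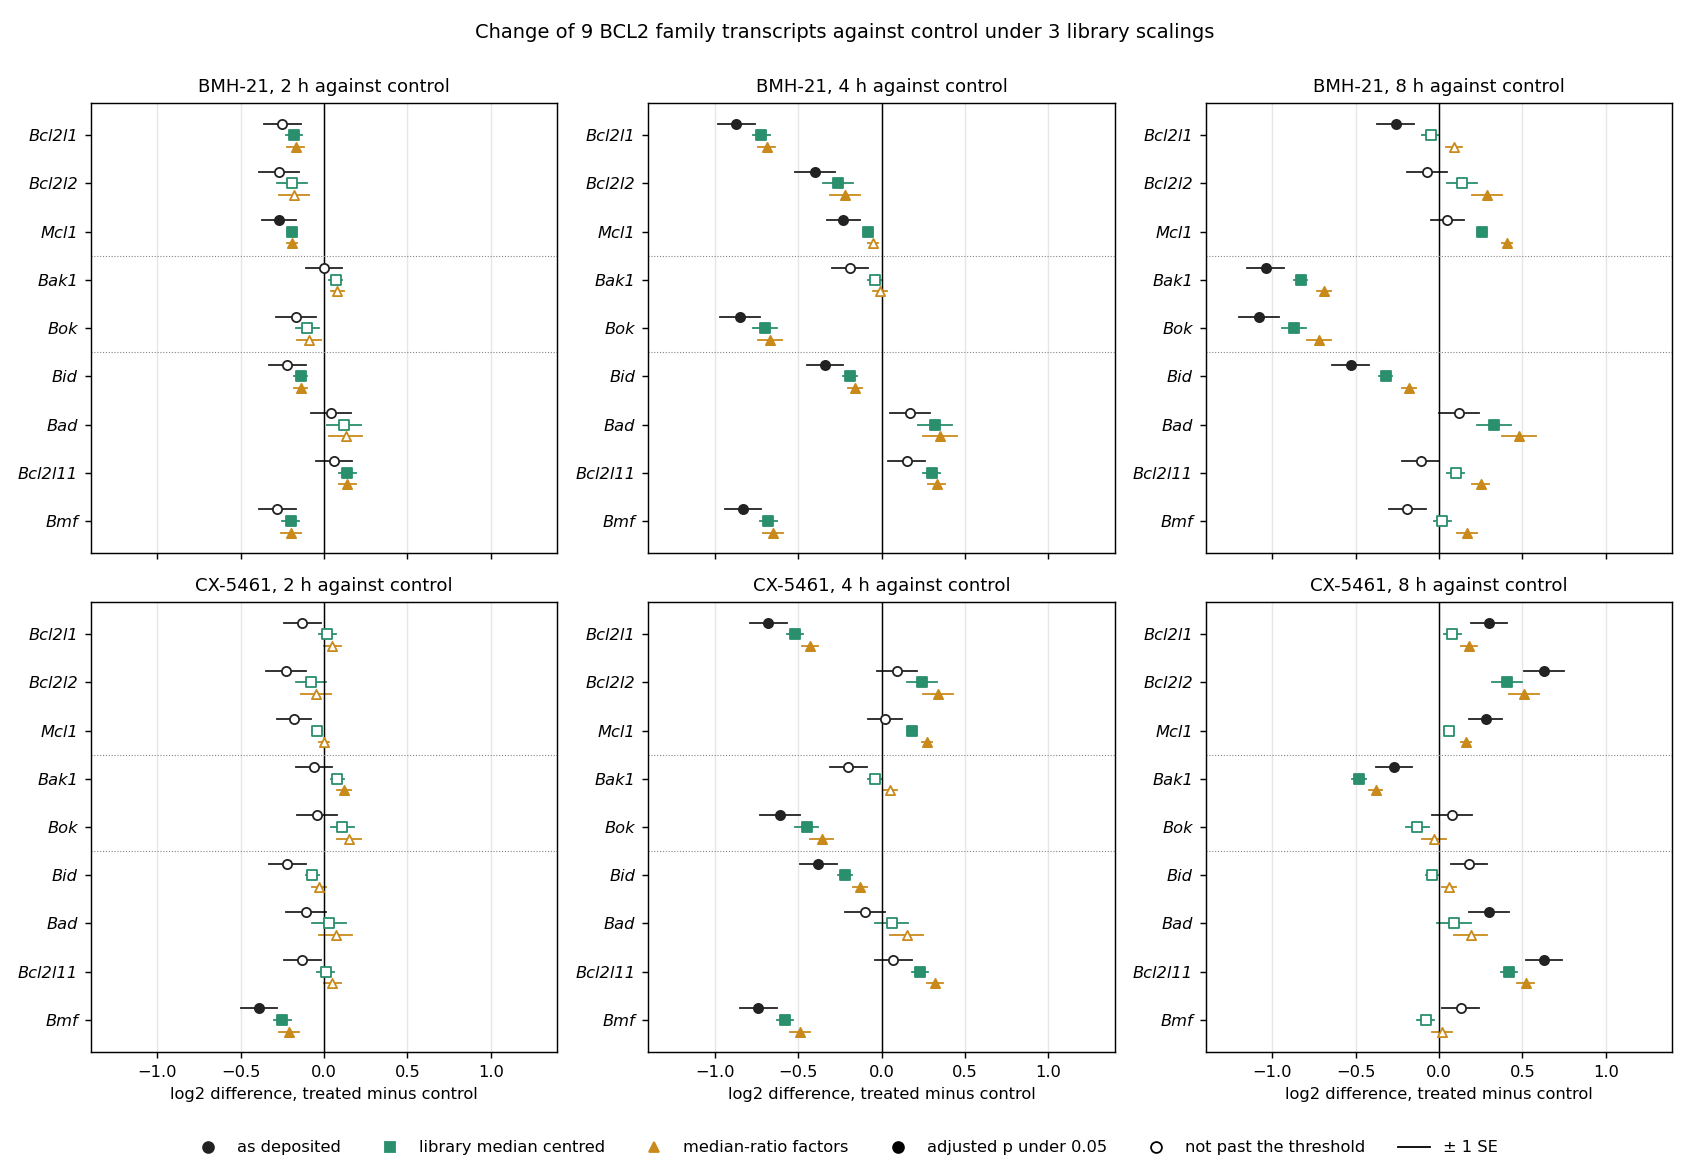
Log2 difference from control (horizontal axis, ± 1 SE) for 9 genes (rows, dotted lines part anti-apoptotic, effector and BH3-only genes) at each time of each inhibitor under 3 library scalings. Filled symbols have an adjusted p under 0.05. Bak1 and Bok lie at -0.69 or lower under each scaling at 8 h of BMH-21, while Mcl1 lies between 0.05 and 0.41 there.

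Both effectors fell to between 0.47 and 0.62 of their control level after 8 h of BMH-21, by different routes. Bak1 (ENSMUSG00000057789.14, GRCm38 chr17:27019810-27029009, minus strand), which encodes the pore former BAK, had log2 values of 6.44, 6.37 and 6.31 in control. Its values were 6.33, 6.08 and 6.16 at 4 h of BMH-21 and 5.47, 5.19 and 5.35 at 8 h. All 8 h values thus lay below every other Bak1 value of the series. Against control Bak1 fell by 1.04 as deposited (SE 0.11, adjusted p = 3.9e-16) and by 0.83 centred (SE 0.04, adjusted p = 7.6e-15). At 4 h of BMH-21 its change of -0.19 did not pass the test (adjusted p = 0.12). In CX-5461 libraries Bak1 was at 6.11, 6.32 and 6.10 at 4 h and at 6.16, 6.04 and 6.14 at 8 h. The 8 h values, all below control, gave a fall of 0.27 as deposited (adjusted p = 0.033) and of 0.48 centred (adjusted p = 5.6e-10). As deposited that call was lost without control replicate 1 or 2 or without CX-5461 8 h replicate 2 or 3, with changes from -0.30 to -0.23 over all libraries left out. The overlapping gene Ggnbp1 was at a mean log2 of 2.98 in control, 2.49 at 8 h of BMH-21 and 3.50 at 8 h of CX-5461. As deposited it thus lay below control with BMH-21, as Bak1 did, and above control with CX-5461, where Bak1 lay below. Whether its reads entered those of Bak1 was not tested.

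Bok (ENSMUSG00000026278.14, GRCm38 chr1:93685660-93695764, plus strand) moved earlier than Bak1 and in both treatments. Control values were 4.21, 4.18 and 4.09. With BMH-21 they were 3.45, 3.16 and 3.30 at 4 h and 3.17, 2.98 and 3.07 at 8 h. Neither group overlapped control, and the fall was 0.85 as deposited and 0.70 centred at 4 h (adjusted p = 1.0e-10 and 1.3e-09). At 8 h it was 1.08 and 0.87 (adjusted p = 1.7e-15 and 1.6e-11). With CX-5461 Bok went to 3.53, 3.66 and 3.45 at 4 h and then to 4.24, 4.11 and 4.38 at 8 h. The 4 h values lay below control, by 0.61 as deposited and 0.45 centred (adjusted p = 1.9e-06 and 1.7e-06), whereas the 8 h values overlapped it. The 8 h difference from control was 0.08 as deposited and -0.13 centred, a change of sign, with adjusted p = 0.57 and 0.078. At 2 h neither inhibitor gave a Bok call on any of the 3 scalings.

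Of the anti-apoptotic genes, Bcl2l1 (ENSMUSG00000007659.18, GRCm38 chr2:152780668-152831728, minus strand) had the widest span of centred group means (0.80), with its low point at 4 h. It encodes BCL-XL, which restrains BAK and BAX. Control values were 5.80, 5.76 and 5.58. At 4 h of BMH-21 they were 5.00, 4.65 and 4.88. In the CX-5461 libraries of that time they were 4.90, 5.16 and 5.05. Both groups lay below control. The BMH-21 fall was 0.87 as deposited and 0.72 centred (adjusted p = 6.7e-12 and 7.3e-12), and that for CX-5461 was 0.68 and 0.52 (adjusted p = 4.2e-08 and 3.2e-09). By 8 h the values stood at 5.48, 5.40 and 5.47 in BMH-21. CX-5461 libraries were then at 6.07, 5.99 and 5.97. Compared with control this was -0.26 as deposited (adjusted p = 0.024), -0.05 centred (adjusted p = 0.36) and 0.09 with median-ratio factors (adjusted p = 0.095) for BMH-21. For CX-5461 it was 0.30 as deposited (adjusted p = 0.017) and 0.08 centred (adjusted p = 0.14). Both deposited calls at 8 h were lost when a single library was left out: BMH-21 8 h replicate 2, control replicate 1 or control replicate 2 for BMH-21, and control replicate 3 or CX-5461 8 h replicate 1 for CX-5461.

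Mcl1 (ENSMUSG00000038612.16, GRCm38 chr3:95658788-95663176, plus strand) stayed close to its control level as deposited and was higher at 8 h of BMH-21 and at 4 h of CX-5461 on the other 2 scales. Its deposited values spanned 8.76 to 9.43 over all 21 libraries. Per length and total reads it went from 140 in control to 210 ± 1.6 at 8 h of BMH-21 and 180 ± 6.73 at 8 h of CX-5461 (SD, n = 3). At 2 h of BMH-21 they were 8.76, 8.91 and 8.84 against 9.19, 9.13 and 8.99 in control, without overlap. Mcl1 fell there by 0.27 as deposited (adjusted p = 0.045) and by 0.19 centred (adjusted p = 6.1e-05). The deposited call was lost without BMH-21 2 h replicate 1 or 3 or without control replicate 1 or 2, with changes from -0.32 to -0.23, and also without the filter on low values, without the variance trend and with the replicate block (adjusted p = 0.096, 0.078 and 0.055). At 4 h of BMH-21 it fell by 0.23 as deposited (adjusted p = 0.034) and by 0.08 centred (adjusted p = 0.027), and median-ratio factors gave -0.05 (adjusted p = 0.16). That deposited call was lost without BMH-21 4 h replicate 2 or 3 or without control replicate 1 or 2. Centring reduced the spread of Mcl1 within groups from an SD of 0.113 to 0.0315, so small shifts passed the test on that scale. At 8 h of BMH-21 the values were 9.22, 9.04 and 9.20 and the change was 0.05 as deposited (adjusted p = 0.65), 0.26 centred (adjusted p = 1.2e-07) and 0.41 with median-ratio factors (adjusted p = 3.6e-11). At 8 h of CX-5461 they were 9.43, 9.29 and 9.42 and the change was 0.28, 0.06 and 0.16, with adjusted p = 0.016, 0.097 and 1.1e-04. Here the deposited call was lost without control replicate 3 or without CX-5461 8 h replicate 1 or 3. Which inhibitor left more Mcl1 at 8 h therefore turned with the scaling: BMH-21 minus CX-5461 was -0.23 as deposited, 0.20 centred and 0.25 with median-ratio factors, each past the threshold. The deposited call was lost without BMH-21 8 h replicate 2 or CX-5461 8 h replicate 1 or 3.

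Bcl2l2 and Bcl2 are the low-level anti-apoptotic genes. Bcl2l2, which encodes BCL-W, had control values of 3.45, 3.34 and 3.54. It was at 3.04, 3.12 and 2.95 at 4 h of BMH-21, a fall of 0.40 as deposited and 0.26 centred (adjusted p = 0.0019 and 0.010), and the centred values overlapped control. At 8 h of CX-5461 it was at 4.11, 3.98 and 4.11, a rise of 0.63 as deposited and 0.41 centred (adjusted p = 3.4e-06 and 1.7e-04) with all 3 libraries above control. Bcl2 had only 21 to 64 reads per library and log2 values between -1.31 and 0.31, with 2 of 21 libraries above 0. In a fit without the filter its largest difference from control was 0.76 at 8 h of CX-5461 (SE 0.28, adjusted p = 0.031), from values of -0.22, 0.31 and 0.25 against -0.18, -1.08 and -0.68, which overlap. The 5 other Bcl2 comparisons with control lay between -0.24 and 0.55 with adjusted p from 0.24 to 0.82. Between 4 h and 8 h of CX-5461 Bcl2 rose by 0.85 in that fit (SE 0.28, adjusted p = 0.014). It rose from -0.78, -0.62 and -0.81, without overlap. The median over all tested genes in this step was 0.34 as deposited. Centred, the Bcl2 group means were -0.72 in control, and -0.65 and -0.18 at 4 and 8 h of CX-5461. The highest centred value at 4 h was -0.58 and the lowest at 8 h -0.56. Bcl2 was not tested on that scale.

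Among the BH3-only genes Bmf and Bid fell and Bcl2l11 rose. Bmf (ENSMUSG00000040093.15, GRCm38 chr2:118528757-118549687, minus strand) encodes a protein that is held at the cytoskeleton by dynein light chains and freed under stress. Control values were 4.70, 4.72 and 4.77. With BMH-21 they were 4.06, 3.81 and 3.81 at 4 h and 4.62, 4.41 and 4.59 at 8 h. CX-5461 gave 4.41, 4.35 and 4.24 after 2 h, 3.86, 4.16 and 3.94 after 4 h, and 4.87, 4.86 and 4.85 after 8 h. It was thus lowest at 4 h in both treatments and near control by 8 h. The 4 h fall was 0.83 as deposited and 0.68 centred with BMH-21 (adjusted p = 7.3e-11 and 5.5e-11), and 0.74 and 0.58 with CX-5461 (adjusted p = 4.8e-09 and 1.1e-09). At 2 h of CX-5461 Bmf fell by 0.39 as deposited and 0.25 centred (adjusted p = 0.0046 and 8.9e-04). At 8 h the BMH-21 change was -0.19 as deposited and 0.02 centred, while CX-5461 gave 0.13 and -0.08, so both signs turned with the scaling, and of the 3 scalings only median-ratio factors gave a call (0.17 with BMH-21, adjusted p = 0.0082).

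Bid encodes a protein that caspase-8 cleaves to link death receptors to mitochondria. Its control values were 5.68, 5.65 and 5.50. At 4 h of BMH-21 Bid was at 5.50, 5.13 and 5.17, touching the control range, and at 4 h of CX-5461 at 5.10, 5.42 and 5.17, below it. The fall was 0.34 and 0.38 as deposited and 0.19 and 0.22 centred, with adjusted p = 0.0055, 0.0020, 2.1e-04 and 4.5e-05. The deposited call with BMH-21 was lost without BMH-21 4 h replicate 2 (-0.27). At 8 h Bid was at 5.14, 4.97 and 5.11 with BMH-21, below control by 0.53 as deposited and 0.32 centred (adjusted p = 8.5e-06 and 1.1e-07). With CX-5461 at 8 h it was at 5.84, 5.73 and 5.78, and its difference of 0.18 as deposited and -0.04 centred passed no threshold (adjusted p = 0.18 and 0.41). The overlapping gene Bcl2l13 was at a mean log2 of 6.00 in control, 5.75 at 8 h of BMH-21 and 6.16 at 8 h of CX-5461. Whether its reads entered those of Bid was not tested.

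Bcl2l11 (ENSMUSG00000027381.16, GRCm38 chr2:128126038-128162547, plus strand), which encodes the activator BIM, was the only BH3-only gene of the 4 that rose under 3 scalings against control. Its control values were 5.66, 5.54 and 5.50. At 8 h of CX-5461 they were 6.23, 6.10 and 6.28, all above control, a rise of 0.63 as deposited and 0.42 centred (adjusted p = 6.7e-07 and 1.7e-07). With BMH-21 Bcl2l11 was at 5.92, 5.64 and 5.60 at 4 h and at 5.60, 5.20 and 5.57 at 8 h. Those values overlapped control at both times, and no BMH-21 change passed the test as deposited (0.15 at 4 h, adjusted p = 0.23, and -0.11 at 8 h, adjusted p = 0.36). Centred, the 4 h change was 0.30 (adjusted p = 1.6e-05) and the 8 h change 0.10 (adjusted p = 0.074). Bad, whose protein is controlled by growth factor signalling through phosphorylation, had control values of 3.91, 3.64 and 3.76. It was at 4.10, 4.17 and 3.93 at 8 h of CX-5461, a rise of 0.30 as deposited (adjusted p = 0.023) that was 0.09 and not called after centring (adjusted p = 0.44). That deposited call was also lost without control replicate 2 or without CX-5461 8 h replicate 1 or 2. For BMH-21 it was the reverse, with 0.12 as deposited at 8 h (adjusted p = 0.33) and 0.33 centred (adjusted p = 0.0035). The overlapping gene Gpr137 was at a mean log2 of 3.50 in control, 3.40 at 8 h of BMH-21 and 3.92 at 8 h of CX-5461. In CX-5461 it thus lay above control as Bad did, and whether its reads entered those of Bad was not tested.

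The promoters of 4 of these genes are shown as examples of different courses: Bcl2l1 and Bmf dipped at 4 h, Bok stayed low with BMH-21 and came back with CX-5461, and Bcl2l11 rose with CX-5461. Each sequence is the 250 bases before the RefSeq start site (GRCm38.p6), 5′ to 3′ on the gene's strand. Capitals mark matches to 5 motifs, searched on both strands: the GC box GGGCGG, the CCAAT box, the E-box CACGTG, the TATA box TATAAA and the FOXO site TGTTTAC.
Bcl2l1, chr2:152831729-152831978, minus strand: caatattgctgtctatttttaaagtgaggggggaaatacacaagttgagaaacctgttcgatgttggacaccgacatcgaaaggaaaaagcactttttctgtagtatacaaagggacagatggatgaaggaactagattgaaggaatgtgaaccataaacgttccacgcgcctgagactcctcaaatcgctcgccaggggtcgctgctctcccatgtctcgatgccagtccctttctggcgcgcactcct
Bmf, chr2:118549687-118549936, minus strand: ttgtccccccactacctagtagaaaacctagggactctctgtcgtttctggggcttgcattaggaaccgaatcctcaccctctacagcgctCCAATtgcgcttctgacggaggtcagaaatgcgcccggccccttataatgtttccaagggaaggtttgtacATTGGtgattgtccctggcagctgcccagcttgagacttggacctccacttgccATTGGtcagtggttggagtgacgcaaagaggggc
Bok, chr1:93685325-93685574, plus strand: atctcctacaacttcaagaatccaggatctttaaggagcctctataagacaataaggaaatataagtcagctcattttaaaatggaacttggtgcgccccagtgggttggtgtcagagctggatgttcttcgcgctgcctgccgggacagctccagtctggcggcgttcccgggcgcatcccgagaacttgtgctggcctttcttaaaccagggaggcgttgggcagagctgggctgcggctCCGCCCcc
Bcl2l11, chr2:128125788-128126037, plus strand: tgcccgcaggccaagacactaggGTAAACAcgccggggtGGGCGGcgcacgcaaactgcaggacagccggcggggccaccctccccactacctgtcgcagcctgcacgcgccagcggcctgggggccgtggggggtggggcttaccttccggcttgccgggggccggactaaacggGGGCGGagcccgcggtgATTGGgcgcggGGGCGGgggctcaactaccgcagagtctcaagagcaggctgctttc
Bcl2l1 held none of the 5 motifs, and Bmf held 3 CCAAT matches, 34, 88 and 159 bases before its start. Bok held 1 GC box 8 bases before its start. Bcl2l11 held 3 GC boxes at 46, 74 and 211 bases, 1 CCAAT match at 57 and 1 FOXO match at 227 bases before its start. None of the matches in these 4 windows overlapped another. The window of Bak1, which is not printed, held none of the 5 motifs. Its RefSeq start lies 382 bases from the GENCODE 5′ end, so that window falls inside the GENCODE gene and not before it. Over 32851 RefSeq promoter windows of the same length, 32.7% held a GC box, 33.8% a CCAAT box, 6.02% the E-box, 12.4% the TATA box and 3.17% the FOXO site. GC content was 47.6% for Bcl2l1, 54.0% for Bmf, 55.2% for Bok and 72.0% for Bcl2l11, with a median of 52.4% over all windows. The matches describe these windows and show no binding. Bcl2l1, Bmf and Bcl2l11 have more than 1 RefSeq start, and the window printed is that of the start nearest to the GENCODE gene's 5′ end.

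Between 4 and 8 h the members took different directions. With BMH-21, 4 of 9 rose (background 18.6%) and 2 fell (background 37.8%), and those that held under 3 scalings were Bcl2l1, Bcl2l2, Bmf and Mcl1, higher (background 18.5%), and Bak1, lower (background 32.5%). Bcl2l1 rose by 0.61 as deposited and 0.67 centred (adjusted p = 1.1e-06 and 5.5e-11), and Bmf by 0.64 and 0.71 (adjusted p = 4.2e-07 and 5.9e-11). Mcl1 rose by 0.28 and 0.35 (adjusted p = 0.012 and 2.9e-09), and Bcl2l2 by 0.34 and 0.40 (adjusted p = 0.012 and 2.5e-04). The deposited calls of Mcl1 and Bcl2l2 were lost when certain single libraries were left out (BMH-21 8 h replicate 1 or 3 or BMH-21 4 h replicate 3 for both, and BMH-21 4 h replicate 2 for Mcl1). Their changes then ran from 0.24 to 0.37 and from 0.27 to 0.43. Bak1 fell by 0.86 and 0.79 (adjusted p = 2.1e-11 and 1.2e-13). Bcl2l11 fell by 0.26 as deposited (adjusted p = 0.039) and 0.20 centred (adjusted p = 0.0016), against -0.09 with median-ratio factors (adjusted p = 0.15), and the deposited call was lost without BMH-21 4 h replicate 1 or 8 h replicate 2. With BMH-21, then, the 3 tested anti-apoptotic genes and the BH3-only gene Bmf went up and the effector Bak1 went down over these hours. For Bcl2l1 and Bcl2l2 these rises followed falls at 4 h. Against control at 8 h, Bcl2l1 was at -0.26 as deposited and -0.05 centred, and Bcl2l2 at -0.07 and 0.14. With CX-5461, 8 of 9 rose as deposited (background 58.8%), and 5 of them held under 3 scalings, namely Bcl2l1, Bcl2l11, Bid, Bmf and Bok, where 25.8% of all genes did. Bcl2l1 rose by 0.98 as deposited and 0.60 centred, Bmf by 0.87 and 0.50, and Bok by 0.69 and 0.32, each past the threshold on both scales. Mcl1 turned from 0.26 as deposited to -0.11 centred, both past the threshold, and its deposited call was lost without CX-5461 replicate 1 or 3 of either time. Bak1 went from -0.06 (adjusted p = 0.60) to -0.44 (adjusted p = 7.6e-09).

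**Figure D3:**
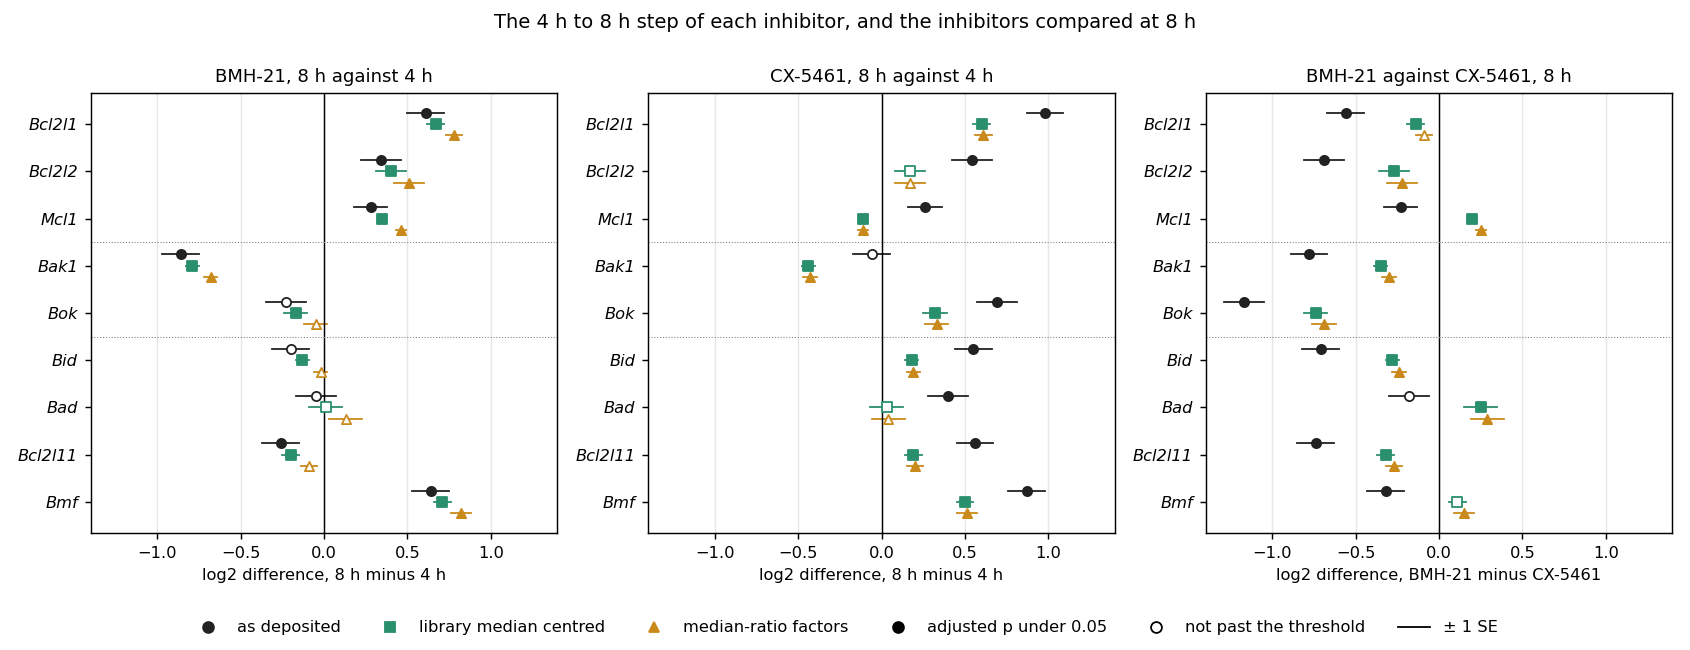
Log2 differences (horizontal axis, ± 1 SE) between 8 h and 4 h of each inhibitor, and between the inhibitors at 8 h, for 9 genes under 3 scalings. Filled symbols have an adjusted p under 0.05. Bak1 falls from 4 to 8 h of BMH-21 on every scale shown while Bcl2l1 and Bmf rise with both inhibitors, and Bok is lower with BMH-21 than with CX-5461 at 8 h by 0.69 to 1.17.

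The inhibitors, at the same dose and time, were compared directly. At 2 h none of the 9 differed as deposited (background 3.99%), and the unadjusted p-values were 0.086 or above, while 3 were lower with BMH-21 after centring (Bcl2l1, Bok and Mcl1, by 0.19, 0.21 and 0.16, background 7.58%). At 4 h Bcl2l2 was lower with BMH-21 (background 8.49%), by 0.49 as deposited and 0.50 centred (adjusted p = 0.0012 and 5.7e-05), and this held under 3 scalings (background 8.46%). At 8 h 8 of 9 were lower with BMH-21 as deposited, where 67.2% of all genes were. The 5 that held under 3 scalings (background 36.4%) were Bok, Bak1, Bcl2l11, Bcl2l2 and Bid. Bok was lower by 1.17 as deposited and 0.74 centred (adjusted p = 1.0e-16 and 8.3e-10), and Bak1 by 0.78 and 0.35 (adjusted p = 2.6e-10 and 1.2e-07). Bcl2l11 was lower by 0.74 and 0.32 (adjusted p = 4.0e-09 and 1.0e-05), Bid by 0.71 and 0.28 (adjusted p = 1.2e-08 and 1.4e-06) and Bcl2l2 by 0.69 and 0.27 (adjusted p = 1.4e-07 and 0.0081). The set thus held both effectors, 2 BH3-only genes and 1 anti-apoptotic gene. The step from 4 to 8 h itself differed between inhibitors for 6 of 9 as deposited (background 61.4%), lower with BMH-21 in each. Bak1, Bcl2l11, Bid and Bok held under 3 scalings, where 27.6% of all genes did.

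Differences between genes of the same library do not depend on the scaling factor. With 3 libraries against 3 an exact permutation test cannot go below 0.10, two-sided, so these values are given without a test. Bok minus Bak1 was -2.24, -2.20 and -2.23 in control on the log2 scale. It was between -2.49 and -2.27 at 2 h of BMH-21, -2.87, -2.92 and -2.87 at 4 h of BMH-21 and -2.59, -2.66 and -2.65 at 4 h of CX-5461, all below control. At 8 h it was -2.29, -2.21 and -2.28 with BMH-21, overlapping control, and -1.92, -1.93 and -1.76 with CX-5461, above it. Bok was thus lower relative to Bak1 at 4 h, and at 8 h of BMH-21 the difference was back in the control range with both genes low. Bok made up 21.9% ± 0.23 of the effectors' per-length reads in control, 15.0% ± 0.23 at 4 h and 21.5% ± 0.52 at 8 h of BMH-21, and 17.4% ± 0.39 at 4 h and 26.4% ± 1.3 at 8 h of CX-5461 (SD, n = 3).

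Bcl2l11 minus Mcl1, the level of an activator relative to the most abundant restrainer, was -3.53, -3.59 and -3.49 in control. In BMH-21 libraries its mean was -3.21, -3.15 and -3.70 after 2, 4 and 8 h (SD 0.11, 0.05 and 0.13). The first 2 of these groups lay above control and the last below it. With CX-5461 it was -3.49 at 2 and 4 h, overlapping control, and -3.18 at 8 h, above it (SD 0.10, 0.03 and 0.03). The order of the inhibitors in this difference was therefore reversed between 4 and 8 h. Bmf minus Mcl1 was -4.38 ± 0.13 in control, -4.98 ± 0.01 at 4 h of BMH-21 and -5.14 ± 0.01 at 4 h of CX-5461, with no overlap. Bcl2 minus Bcl2l1 was -6.36 ± 0.44 in control and between -6.47 and -5.56 in the other group means, of which BMH-21 at 2 h and CX-5461 at 4 h lay wholly above control.

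Summed per-length reads by role gave a ratio for each library. Effectors over anti-apoptotic genes came to 0.249, 0.249 and 0.260 in control. After 2, 4 and 8 h of BMH-21 the ratio was 0.296 ± 0.013, 0.246 ± 0.0060 and 0.119 ± 0.0046. For CX-5461 the same times gave 0.276 ± 0.019, 0.211 ± 0.0079 and 0.183 ± 0.0022 (SD, n = 3). At 8 h both treatments lay below every control library, and BMH-21 lay below CX-5461 without overlap. BH3-only over anti-apoptotic genes was 0.172 ± 0.0054 in control. After 2, 4 and 8 h of BMH-21 it was 0.190 ± 0.0058, 0.181 ± 0.0031 and 0.141 ± 0.0017, the first lying above every control library and the last below. CX-5461 gave 0.168 ± 0.0045, 0.143 ± 0.00099 and 0.173 ± 0.0062 at those times, with the 4 h group below control. Mcl1 dominates the denominator of both ratios and Bak1 the numerator of the first, so they mainly follow those genes. These are transcript ratios, and protein levels were not measured.

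**Figure D4:**
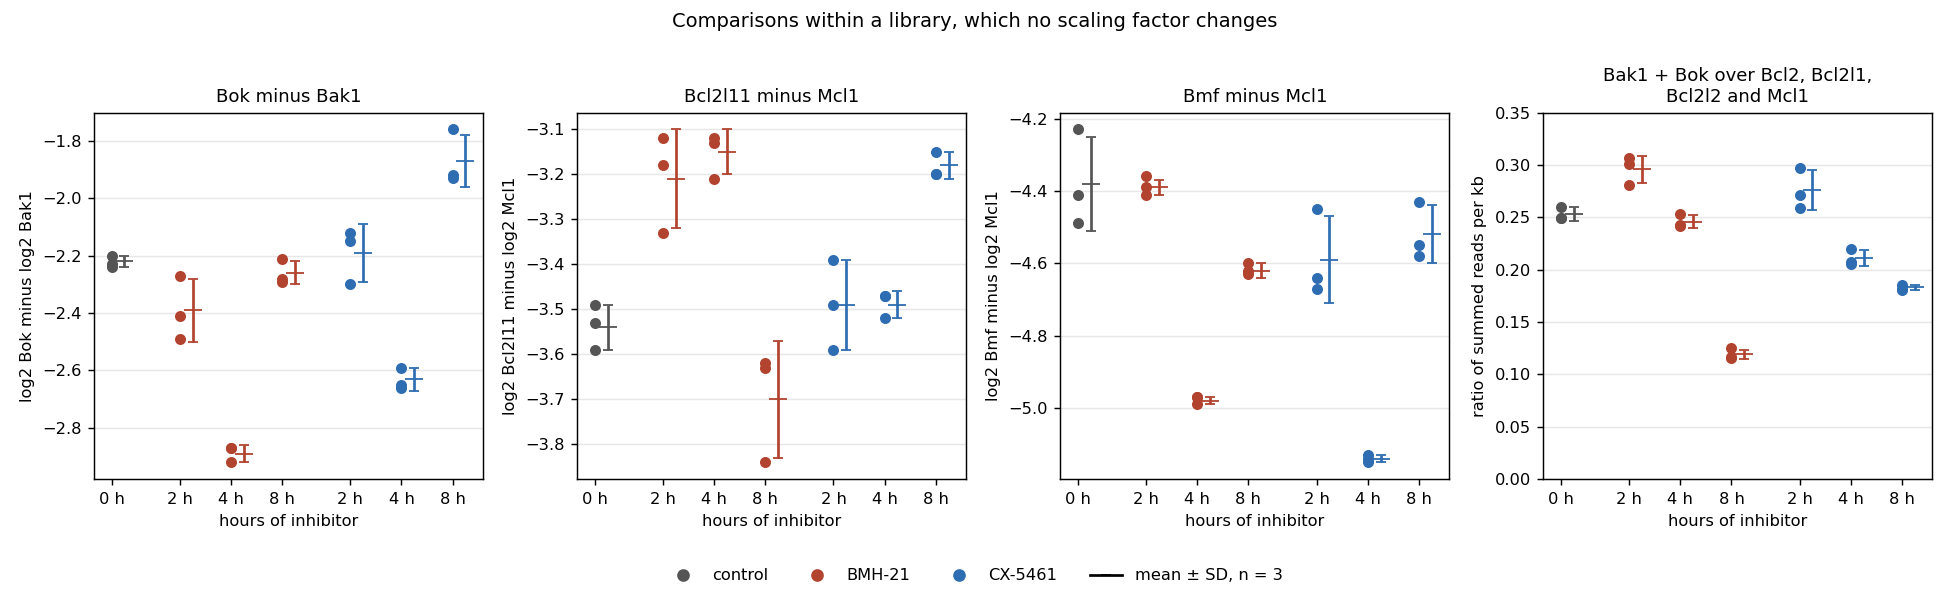
Log2 difference between pairs of genes, and the ratio of summed per-length reads of effectors to anti-apoptotic genes, in each of the 21 libraries (points) with mean ± SD of 3, by hours of inhibitor (horizontal axis). Bok minus Bak1 is lowest at 4 h of BMH-21 (-2.89) and highest at 8 h of CX-5461 (-1.87), and the effector ratio is lowest at 8 h of BMH-21 (0.119).

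Over the 7 centred group means, Bcl2l1 and Bmf had the most similar courses of any pair of the 9 genes (Pearson r = 0.92), followed by Bok and Bid (0.88), while Bok and Bad ran most opposite (-0.89). These describe 7 points that share libraries and carry no test. Among 5301 genes spanning at least 1 log2 unit, the course most like that of Bak1 was that of Itga9 (r = 0.996), which was at a centred -1.96 at 8 h of BMH-21 and -1.25 at 8 h of CX-5461 against control. The course of 2610528J11Rik was most like that of Bok (0.992), Erbb2ip like Bcl2l1 (0.979), Rlim like Bmf (0.985) and Trim67 like Bcl2l11 (0.980). For the others they were Chn2 for Bcl2l2 (0.973), Eid2b for Mcl1 (0.969), Ehbp1l1 for Bid (0.970) and 1110059E24Rik for Bad (0.987). Each is the best of 5301, so a high value is to be read with that search in mind.

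Of the family's 3 p53 targets, Pmaip1 and Bbc3 gave a different picture in the same libraries and Bax did not. Pmaip1, which encodes NOXA, an antagonist of MCL1, went from 3.21, 3.17 and 2.83 in control to 6.11, 6.01 and 6.36 at 8 h of BMH-21 and 5.17, 4.99 and 5.12 at 8 h of CX-5461. Its rise of 3.09 and 2.02 as deposited (adjusted p = 6.2e-52 and 9.4e-34) exceeded any change among the 9 genes described here. Bbc3, which encodes PUMA, rose by 2.02 at 2 h and 1.76 at 8 h of BMH-21, and by 1.97 and 1.54 over the same times of CX-5461. Bax, the other main effector, was at 8.04, 8.07 and 7.88 in control and at 7.74, 7.78 and 7.73 at 8 h of BMH-21. As deposited it fell by 0.25 there (adjusted p = 0.022), against -0.03 centred and 0.11 with median-ratio factors, neither of them called. Over the same comparison Bak1 fell by 0.69 or more on each of the 3 scales. At 4 h of BMH-21 Bax changed by 0.03 as deposited (adjusted p = 0.80), 0.18 centred (0.010) and 0.21 with median-ratio factors (0.0025). With CX-5461 only median-ratio factors called Bax against control, higher by 0.18 at 2 h and 0.16 at 4 h (adjusted p = 0.020 and 0.018).

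Other genes of the apoptosis pathway, from lists drawn up with the family's biology in mind, are given as counts at 8 h, as deposited. Of all tested genes 56.9% were lower with BMH-21, and 35.1% were higher and 14.3% lower with CX-5461, so several of these counts lie near the background. No such share is given for rises with BMH-21 or for the other 2 scales, so those counts cannot be set against a background. Of 11 tested further BCL2 family genes, p53 targets included, 4 rose and 7 fell with BMH-21, from Pmaip1 to Bcl2l12 at -1.45, and after centring 4 rose and 4 fell. With CX-5461 4 rose, the smallest of the rises being Bik at 0.86, and after centring 2 others fell. Of 12 caspases and mitochondrial factors 3 rose and 7 fell with BMH-21, and Apaf1, the apoptosome scaffold, rose most, by 3.08. After centring 4 rose and 7 fell. With CX-5461 4 rose, Apaf1 by 2.02, and 1 fell, Casp2 by 0.33, against 3 and 5 after centring. All 5 inhibitors of apoptosis fell with BMH-21, from Xiap at -0.62 to Birc3 at -0.83, while with CX-5461 the limma call count was 0 of 5 as deposited, 1 of 5 (Birc5, at -0.22) at an unadjusted p under 0.05, and 4 after centring, all lower. Of 6 genes for MCL1 turnover, 2 rose and 4 fell with BMH-21, against 2 and 3 after centring. They ranged from Fbxw7, a ubiquitin ligase subunit that targets MCL1, at 1.63 to Usp13, a deubiquitinase, at -1.55. For CX-5461 2 rose, Fbxw7 by 0.94, and 2 fell, Huwe1 by 0.44, against 2 and 4 after centring. Among 6 regulators and partners Foxo3, a transcription factor, rose by 1.85 and 1.34 and Vdac2, a mitochondrial channel that binds BAK, fell by 1.25 and 0.45 with BMH-21 and CX-5461. In all, 2 of these 6 rose and 2 fell with BMH-21, and 3 rose and 1 fell with CX-5461. Centred, BMH-21 gave 3 higher and 2 lower and CX-5461 gave 2 higher and 2 lower. Of 6 death receptor genes 3 rose with BMH-21, from Tnfrsf1a at 0.34 to Fas at 6.85, and 2 with CX-5461, Tnfrsf10b by 0.83 and Fas by 4.34. After centring 5 rose with BMH-21 and 2 with CX-5461, and with median-ratio factors 6 and 2. Median changes at 8 h of BMH-21 were -0.25, -0.51, -0.71, -0.78, -0.09 and 0.17 for the 6 lists in this order, beside -0.40 over all tested genes.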

How the data were processed

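The single deposited table gives log2 expression of 20900 genes in 21 libraries, normalized with voom by the authors per the file's name. The submitters' processing notes name Trim Galore 0.5.0, TopHat2 2.1.1, R 4.0.5, DESeq2 1.30.1, edgeR 3.32.1, limma 3.46.0 and the mm10 build. The counting program, its strand setting and the annotation are not given in the sources used here. Per the labels' protocols, poly(A) RNA was DNase-treated and libraries were made with a directional kit. Library groups, times and replicate numbers come from the titles.

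Reads were recovered from the log2 values (whole to within 1.7e-08 with the offset of 0.5), so log2 differences of low genes are understated. limma 3.58.1 (R 4.3.3) was fitted to the log2 table as 7 group means, with a variance trend and Benjamini-Hochberg adjustment over 14666 genes with log2 above 0 in at least 3 libraries, two-sided, at a threshold of 0.05. There were 12 comparisons. limma's prior for the variance weighed 111.5 degrees of freedom before centring and 8.5 after it, beside 14 from replicates. The script was tested on simulated data.

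Alternatives were centring on the library median, median-ratio factors, no filter, an offset of 5 reads, no trend, voom weights, the replicate number as a block, and leaving out each library. The members and lists were chosen with earlier results of these data known. Genes named besides the members are, per apoptosis list, the highest and lowest called change at 8 h of each inhibitor. To these the rule adds Bax, Bbc3 and Pmaip1, and the gene most alike to each member. Cell type markers, genes that overlap the exons of a member, and Birc5 are named outside this rule. Per-length levels divide recovered reads by GENCODE M21 exon length and the library's total reads, and the role shares and ratios were added after values were seen. Figures used matplotlib 3.10.9. One gene that this rule names is not reported here.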

Additional observations from a re-analysis of the deposited data

Results flagged for a closer look

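For 6 genes the change from 4 to 8 h differed between the inhibitors by a test of the difference itself (BMH-21 step minus CX-5461 step, limma on the deposited log2 values, adjusted over all tested genes). The differences were -0.92 for Bok (adjusted p = 6.5e-07), -0.83 for Bcl2l11 (4.0e-06), -0.79 for Bak1 (4.4e-06), -0.75 for Bid (2.2e-05), -0.45 for Bad (0.011) and -0.37 for Bcl2l1 (0.029). Of all tested genes 61.4% were called lower in the same comparison, and the median over them was -0.52. After centring the differences were -0.49 for Bok, -0.39 for Bcl2l11, -0.35 for Bak1 and -0.31 for Bid, each past the threshold. For Bad and Bcl2l1 they were -0.01 and 0.07, with adjusted p = 0.94 and 0.43. Bok rose with CX-5461 in these hours and was not called with BMH-21 as deposited, whereas Bak1 fell with BMH-21 and was called with CX-5461 after centring only. The call for Bcl2l1 as deposited was lost without BMH-21 4 h replicate 1 or 3, CX-5461 4 h replicate 1 or CX-5461 8 h replicate 1.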

How the results depend on the processing

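Most dependence was on library scaling. Shares of all tested genes called on the other scales are not given beside the counts below. The counts therefore show no trait particular to the 9 genes. Centring lowered the median SD within groups over all tested genes from 0.15 to 0.086. The number of the 9 genes called with BMH-21 at 2 h was 1 in the deposited table, 5 with either other scaling (centred or median-ratio factors), and 0 with no filter, with no variance trend and with the replicate block. With scaling other counts also moved by over 1.5 times: BMH-21 at 8 h went from 4 to 8 with median-ratio factors, CX-5461 at 2 h from 1 to 2 with median-ratio factors, CX-5461 at 4 h from 4 to 7 with both, CX-5461 at 8 h from 6 to 3 after centring, and BMH-21 against CX-5461 from 0 to 3 at 2 h and from 1 to 5 at 4 h with both. Leaving out 1 library gave 0 to 2 calls for BMH-21 at 2 h, 1 to 2 for CX-5461 at 2 h, 3 to 5 for CX-5461 at 8 h and 1 to 2 for the inhibitors at 4 h.

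Signs that turned, among results called under at least 1 scaling, are given as centred, then median-ratio. At 8 h of BMH-21 they were 0.14 and 0.29 for Bcl2l2, 0.10 and 0.25 for Bcl2l11, 0.02 and 0.17 for Bmf, and 0.09 with median-ratio factors for Bcl2l1. Bak1 at 2 h of CX-5461 gave 0.08 and 0.12. For BMH-21 against CX-5461 at 8 h Mcl1 gave 0.20 and 0.25, Bad 0.25 and 0.29, and Bmf 0.11 and 0.15. Mcl1 from 4 to 8 h of CX-5461 gave -0.11 and -0.11. For the difference in step Bcl2l1 gave 0.07 and 0.17, Bcl2l2 0.23 and 0.34, Bmf 0.21 and 0.31, and Bad 0.09 with median-ratio factors. With 1 library left out the sign turned for Bcl2l11 at 2 h (-0.02 to 0.16) and 8 h (-0.18 to 0.02), Bcl2l2 at 8 h (-0.13 to 0.03) and Mcl1 at 8 h (-0.00 to 0.11) of BMH-21, for Mcl1 (-0.06 to 0.08) and Bcl2l11 (-0.02 to 0.15) at 4 h of CX-5461, for Bak1 from 4 to 8 h of CX-5461 (-0.10 to 0.01) and for Mcl1 in the difference in step (-0.06 to 0.11), none of them called as deposited. The cause was not tested.

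Replicate numbers did not pair the samples: over 63 same-numbered pairs the correlation of deviations ran from -0.25 to 0.11, with 1 above 0.1. The replicate block lost Mcl1 at 2 h of BMH-21 and changed no other call among 81 results, and the offset of 5 reads and voom weights changed none of the 81. Depth limits Bcl2 most, with 21 to 64 reads per library.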
